A study of Mus musculus with 6 samples.

Results

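The genes described here are 10 cell adhesion and ectodomain shedding genes, namely 3 classical cadherins (Cdh1, Cdh2 and Cdh3), the catenins Ctnna1 and Ctnnd1, the ADAM family genes Adam10, Adam17 and Adam23, the adhesion molecule Epcam and the claudin Cldn6. They were chosen by gene symbol from the 23412 genes in the table of normalized counts, and each of the 10 was found once. RNA-seq was performed on undifferentiated mouse embryonic stem cells (mESCs) of strain 129Sv, with 3 libraries from the wild type line R1 and 3 from the line HN, which is Htt-/- (Htt-null) through loss of the promoter and exon 1 of the huntingtin gene. Both lines were grown without feeder cells on gelatin in serum medium with LIF, the FGF receptor inhibitor SU5402, the MEK inhibitor PD184352 and the GSK3 inhibitor CHIR99021. RNA from both lines was collected on the same 3 dates, 17 February, 20 February and 2 March, so each HN library had an R1 library of its own date, called its same-date pair here. Each genotype was represented by a single line, so that the effect of Htt and other differences between the lines cannot be told apart. The p-values measure only the spread between these libraries, which the fits partly pooled over genes.

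Classical cadherins join neighbouring cells through calcium-dependent binding of their extracellular parts, and catenins tie their cytoplasmic tails to actin. E-cadherin (Cdh1) holds mESC colonies together and N-cadherin (Cdh2) replaces it in many neural and mesodermal cells. The membrane proteases ADAM10 and ADAM17 cut the extracellular parts of cadherins and other surface proteins, whereas ADAM23 lacks the zinc-binding motif of an active protease and acts in cell adhesion. Huntingtin has been linked in neural tissue to the activity of ADAM10 on N-cadherin, which gives the comparison of these genes between R1 and HN its interest.

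The libraries held from 1640391 to 3866717 reads on genes, the R1 library of 2 March having the fewest. The libraries of that date nevertheless had reads on the most genes of their line, 20675 in R1 and 20542 in HN. Htt, which checks the labels, had normalized counts of 230, 257 and 199 in R1 and 18.3, 58.1 and 54.2 in HN, so the lines did not overlap. The summed level of 8 mESC markers ranged from 12129 to 17914 in R1 and from 12845 to 17304 in HN, and each of these markers had reads in every library. Within that list Zfp42 fell with the block (log2 fold change -0.79, lower in each HN library). It lies on chromosome 8, whose tested genes had a median log2 fold change of -0.22. Klf4 (0.53), Esrrb (0.37), Nanog (0.28) and Dppa5a (0.27) rose with the block. Without the block 0 of the 8 passed by limma, where 2 had an unadjusted p under 0.05. Replicates of the same date deviated together (correlations from 0.57 to 0.76 over 7659 genes), and each test was therefore also made with the collection date as a block.

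Adam23 was the member that differed most between the lines, and it was lower in HN. In the comparison without the block 1 of the 10 genes was lower in HN at an adjusted p under 0.05, against 0.126% of the 14276 genes tested, and 0 were higher, against 0.119%. The study had already reported Adam23 as lower in HN from these libraries, and the members were chosen with earlier results known. The share of members past the threshold is therefore no independent result. With the block, Adam23 was lower in HN, against 4.02% of tested genes, and Cdh2 was higher, against 5.46%. Where an absolute log2 fold change above 1 was also required in the blocked comparison, 1 member was lower, against 1.04% of tested genes, and 0 were higher, against 0.911%. For Adam23 every HN library lay below every R1 library, which held for 5.54% of tested genes. For Adam10 every HN library lay above every R1 library, which held for 5.23% of tested genes. The median log2 fold change of the 10 genes was 0.18, beside -0.01 over all tested genes, and 8 of the 10 had a value above 0, beside 48.5% of tested genes. With 3 libraries per line, the smallest two-sided p of an exact permutation test is 0.1, so single genes were tested only in the model fitted across all genes.

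**Figure D1:**
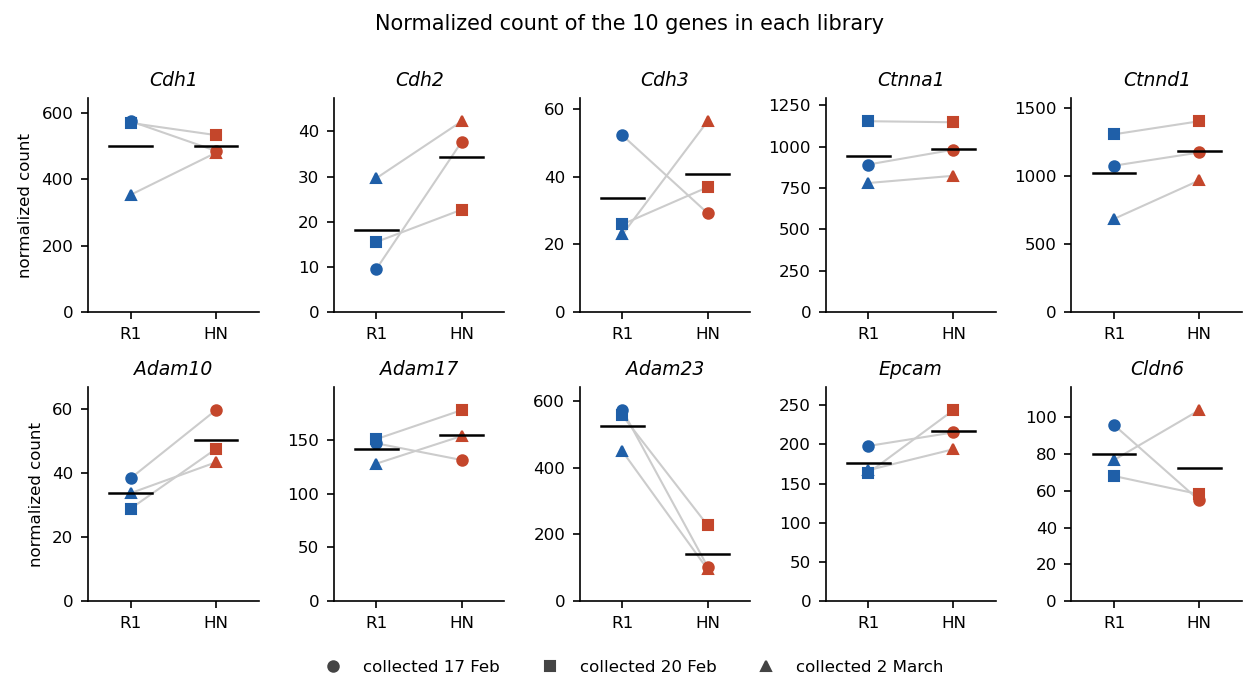
Normalized count (y axis, from 0) of each of the 10 genes in the R1 (blue) and HN (red) libraries. Marker shapes give the collection date, grey lines join same-date pairs and black bars are means of 3 libraries. Adam23 fell in all 3 pairs, and the HN libraries of Adam10 lie above the R1 libraries.

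The cadherins were represented mainly by Cdh1, whose level did not pass the test. Cdh1 lies on chromosome 8 of GRCm38 from 106603351 to 106670246, and its longest coding transcript has 16 exons. Its normalized counts were 575, 570 and 353 in R1 and 485, 533 and 479.8 in HN, the R1 library of 2 March being the lowest. The R1 mean was 499 ± 127 and the HN mean 499 ± 29.2 (SD, n = 3 each). The log2 fold change, which is HN minus R1 on the log2 scale of the normalized count plus 1 throughout, was 0.03 with a 95% interval from -0.44 to 0.51, so the ratio of HN to R1 lay between 0.737 and 1.42. With the block the interval of this ratio narrowed to between 0.877 and 1.19.

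Cdh2 had few reads in these cells, between 9 and 39 per library. Its normalized counts were 9.58, 15.5 and 29.7 in R1 and 37.7, 22.7 and 42.2 in HN. The R1 library of 2 March was above the HN library of 20 February, so the lines overlapped, although HN was above R1 in 3 of 3 same-date pairs. The log2 fold change was 0.96 (SE 0.44, 95% interval from 0.01 to 1.91) and did not pass without the block (limma, adjusted p = 0.835). It passed with the block (SE 0.30, adjusted p = 0.0335 in limma and 0.0369 in edgeR) but not in DESeq2 with the block (adjusted p = 0.330). The blocked SE draws on spread pooled over genes and not on the Cdh2 pairs alone. The pair of 17 February carried much of the Cdh2 difference, with a ratio of HN to R1 of 3.94. The ratios were 1.46 and 1.42 in the pairs of 20 February and 2 March. Without the 2 libraries of 17 February the blocked log2 fold change was 0.51 (limma, adjusted p = 0.399), and without those of 20 February it was 1.18 (adjusted p = 0.0553).

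Cdh2 is also expressed by mesenchymal, neural and gastrulating cells, so the markers of such cells were examined beside it. The summed level of 4 primitive streak markers was 80.9 to 166 in R1 and 151 to 247 in HN. Within that list T and Eomes rose with the block (log2 fold change 1.21 and 0.96, limma adjusted p = 0.0010 and 8.6e-05). Mixl1 (0.28) and Gsc (-0.37) of that list did not pass. The summed level of 8 mesenchymal markers was 82.9 to 206 in R1 and 46.1 to 115 in HN, the highest sum of each line being that of 2 March. Of these markers Thy1 and Pdgfrb fell with the block (log2 fold change -1.54 and -1.39). Col1a1 (-0.13), Col1a2 (-0.45), Col3a1 (0.11) and Fbn1 (0.26) did not pass. The 6 neural markers summed to 267 to 317 in R1 and 226 to 308 in HN, but 2 of them changed with the block in opposite directions. Olig2 rose (log2 fold change 2.80, from a mean of 12.7 to 69.9, limma adjusted p = 1.3e-06) and Tubb3 fell (-0.76, from 201 to 117). Tubb3 lies on chromosome 8, whose tested genes had a median log2 fold change of -0.22. Nes (0.53), Sox1 (0.30), Pax6 (-0.44) and Neurog2 (-0.41) of that list did not pass. None of these markers lacked reads in all 6 libraries, while Postn and Acta2 lacked them in some. The part of such cells in the Cdh2 difference was not tested, and in bulk samples fewer cells of a type and less RNA per cell cannot be told apart.

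Cdh3, which encodes P-cadherin, varied more between libraries than between lines. Its normalized counts were 52.2, 25.9 and 22.9 in R1 and 29.2, 36.9 and 56.3 in HN. HN was lower in the pair of 17 February, with a ratio of HN to R1 of 0.560, and higher in the pairs of 20 February and 2 March, with ratios of 1.42 and 2.46. Cdh3 had a log2 fold change of 0.31 with a 95% interval from -0.50 to 1.13. It passed in 1 blocked fit, that without the libraries of 17 February (log2 fold change 0.88, limma adjusted p = 0.0330), and was -0.16 in that without the libraries of 2 March.

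Cdh3 and Cdh1 are neighbours, with 46053 bp between them, on a chromosome whose genes were lower in HN as a whole. The median log2 fold change of 753 tested genes of chromosome 8 was -0.22, with medians of -0.26, -0.28 and -0.13 in the 3 same-date pairs. Within 1 Mb of the 2 cadherin genes, 38 of 45 other tested genes had a log2 fold change below 0, with a median of -0.19. This held for 79.15% of tested genes of chromosome 8 and for 7354 of all 14276 tested genes. With the block 8 of these neighbours passed, all lower in HN, beside 4.02% of all tested genes. They include Tango6, the nearest, 12822 bp from the locus (log2 fold change -0.55), and the arginine methyltransferase gene Prmt7 (-0.61). Cdh1 and Cdh3 therefore stood above the median of their neighbourhood. After each chromosome was centred on its median, the log2 fold change was 0.27 for Cdh1 and 0.55 for Cdh3, and neither passed with the block (limma, adjusted p = 0.107 and 0.208).

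**Figure D2:**
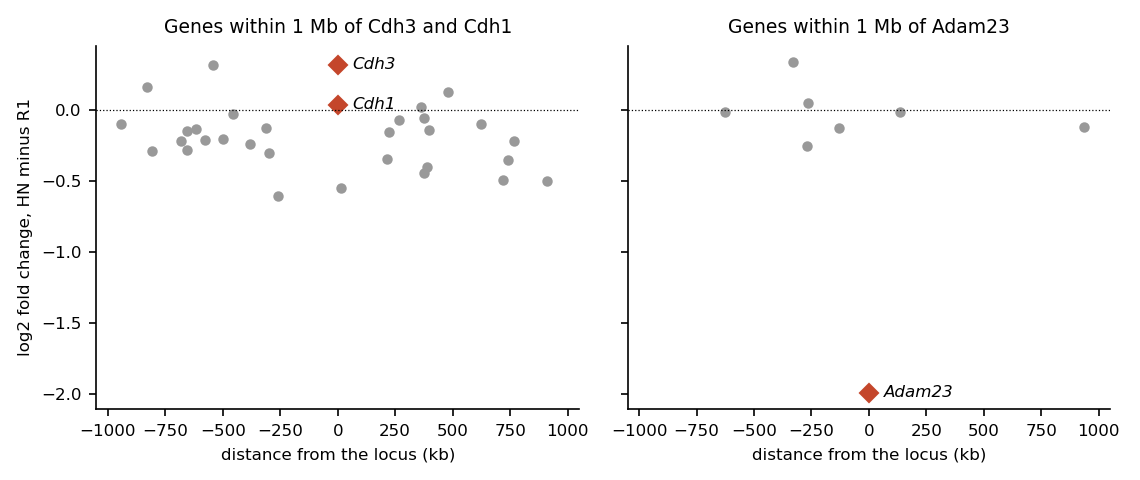
Log2 fold change of genes (y axis) against distance in kb (x axis) from the Cdh3 and Cdh1 locus (left) and from Adam23 (right), for tested genes within 1 Mb with a mean normalized count of at least 50 (grey) and for the members (red). On the left 26 of 30 grey points lie below 0, with Cdh3 at 0.31 and Cdh1 at 0.03; on the right Adam23 lies at -1.99, below all 7 neighbours.

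The catenins were the most abundant members and neither passed. Ctnna1, the alpha-catenin that links the cadherin complex to actin, had normalized counts of 892, 1154 and 780.4 in R1 and 982, 1148 and 824 in HN. Its log2 fold change was 0.07, with a 95% interval from -0.38 to 0.52 without and from -0.11 to 0.25 with the block. Ctnnd1, the p120-catenin that keeps cadherins at the cell surface, had 1077, 1308 and 686 in R1 and 1174, 1404 and 969 in HN. HN was higher in 3 of 3 pairs, but each line spanned more than the difference between them. The log2 fold change of Ctnnd1 was 0.24, with an interval from 0.05 to 0.43 with the block, and it did not pass over all genes (limma, adjusted p = 0.102 with the block). Of the 50-base stretches of Ctnnd1 transcripts, 56.7% also occur in transcripts of the overlapping gene Gm28635. No row of the counts has that name, so whether reads of Ctnnd1 were lost to it cannot be seen. For Ctnna1 the share was 0.783%, including its overlapping gene Lrrtm2.

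Among the ADAM genes, Adam23 fell while Adam10 and Adam17 did not pass. Adam23 lies on the plus strand of chromosome 1 of GRCm38 from 63445891 to 63596276, spans 150386 bp, and its longest coding transcript has 26 exons. The 250 bases before its RefSeq start (GRCm38.p6, chr1:63445641-63445890, plus strand) are shown because it is the member that changed, with each CG dinucleotide in capitals. They hold 27 CG dinucleotides, and 8.56% of 32851 RefSeq promoter windows of this length hold as many or more, the median being 6.
Adam23: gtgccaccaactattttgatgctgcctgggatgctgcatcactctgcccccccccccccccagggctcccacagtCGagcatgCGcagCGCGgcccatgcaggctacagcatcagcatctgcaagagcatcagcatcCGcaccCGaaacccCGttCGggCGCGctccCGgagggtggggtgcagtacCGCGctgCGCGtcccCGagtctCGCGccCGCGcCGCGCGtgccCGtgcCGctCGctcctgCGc
This count is a description of the window, and methylation was not measured here.

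Adam23 had normalized counts of 574, 558 and 450.2 in R1 and 103, 228 and 95.3 in HN. The highest HN library, that of 20 February, was below the lowest R1 library, so the lines did not overlap. The R1 mean was 527 ± 67.2 and the HN mean 142 ± 74.1 (SD, n = 3 each). The log2 fold change was -1.99 (SE 0.30, 95% interval from -2.64 to -1.34, limma, adjusted p = 0.0146), which is 3.98-fold lower in HN with an interval from 2.53-fold to 6.25-fold. With the block the value was the same and its interval ran from -2.28 to -1.71. In the same-date pairs the ratio of HN to R1 was 0.180, 0.408 and 0.212. Among all tested genes it had rank 21 from the lowest log2 fold change.

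The call of Adam23 without the block rested on the libraries of 17 February. Its adjusted p rose to 0.141 without the R1 library of that date and to 0.151 without the HN library, with log2 fold changes of -1.93 and -1.82. It was also lost in limma without the trend of variance on expression (adjusted p = 0.348), a fit in which 0 genes passed. At the same adjusted p under 0.05, 17 genes were higher and 18 lower in limma with the trend, and 16 and 18 in edgeR. DESeq2 without the block passed more, 68 higher and 44 lower. With the trend, 843 of 14276 tested genes had an unadjusted p under 0.05. Adam23 passed in all fits with the block, also when the 2 libraries of any 1 date were left out (log2 fold change from -2.34 to -1.76).

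The genes around Adam23, examined after its value was seen, ranged from -0.73 to 0.34 in log2 fold change. Within 1 Mb, 11 other tested genes had a median log2 fold change of -0.02, and 0 of them passed with or without the block by limma. The lowest was Snora41 at -0.73, and the nearest were Zdbf2 at -0.13 and Fastkd2 at -0.02. The median over the 842 tested genes of chromosome 1 was -0.06, and after chromosome centring Adam23 stood at -1.93 (limma, adjusted p = 0.0341). Adam22, a related ADAM gene that also encodes a protein without protease activity, did not pass, with 69.0 ± 18.1 for R1 and 82.0 ± 14.5 for HN (SD, n = 3 each) and a log2 fold change of 0.26.

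The genes whose profile over the 6 libraries was most like that of Adam23 were Eras, Tmem64, Nek3, Epas1 and Wdfy1. Likeness was the root mean square difference between log2 profiles, each centred on its own mean, over 7642 other genes with a mean of at least 50, and it was 0.301 for Eras, the Ras family gene of embryonic stem cells, and 0.318 for Tmem64. The mean of Eras was 169 ± 28.9 for R1 and 58.3 ± 15.8 for HN (SD, n = 3 each). For Tmem64 the means were 510.1 ± 72.1 and 119 ± 15.9. The values were 0.366 for Nek3, 0.411 for Epas1 and 0.420 for Wdfy1, the last of which lies on chromosome 1 like Adam23. These genes were picked by their likeness, so that they too were lower in HN is no further result.

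Adam10, the protease that sheds E-cadherin and N-cadherin, was higher in each HN library than in each R1 library but did not pass. Its normalized counts were 38.3, 28.9 and 33.7 in R1 and 59.6, 47.5 and 43.3 in HN, from 25 to 67 reads per library. Its log2 fold change was 0.56 (SE 0.27) with a 95% interval from -0.04 to 1.15 (limma, adjusted p = 0.915). With the block the interval was 0.12 to 0.998, and the adjusted p was 0.102 in limma and 0.0656 in edgeR. In the same-date pairs the ratio of HN to R1 was 1.56, 1.65 and 1.29.

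Adam17, which sheds many growth factors and cytokines, did not pass and its libraries overlapped. It had 147, 151 and 128 in R1 and 131, 178 and 154 in HN. Its log2 fold change was 0.11 with a 95% interval from -0.34 to 0.56. Within each library the level of Adam10 per kb was 25.4%, 18.6% and 25.6% of that of Adam17 in R1 and 44.1%, 26.0% and 27.4% in HN. The HN values lay above the R1 values, by little in the libraries of 20 February and 2 March, and the log2 ratio rose by 0.45 on average, from -2.05 ± 0.26 to -1.60 ± 0.42 (SD, n = 3). No test was made of this ratio. Of the 50-base stretches of Adam17 transcripts, 4.83% also occur in transcripts of other genes, and for Adam10 and Adam23 0 do.

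**Figure D3:**
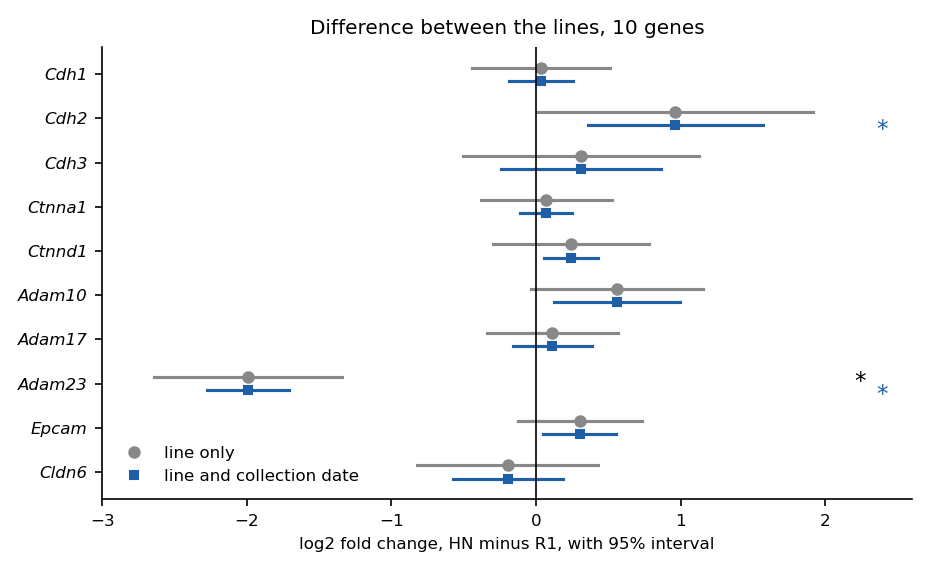
Log2 fold change (x axis, HN minus R1) of the 10 genes with 95% intervals, in limma with the line only (grey circles) and with line and collection date (blue squares). Stars mark an adjusted p under 0.05 in the fit of that colour (black for the line only). Adam23 passed in both, and Cdh2 passed in the fit with the date only.

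Epcam, which encodes a homophilic adhesion molecule of epithelia and embryonic stem cells, was somewhat higher in HN without passing. It had 198, 163 and 167 in R1 and 215, 244 and 194 in HN, and only the HN library of 2 March fell below the highest R1 library. For Epcam the log2 fold change was 0.30 with a 95% interval from -0.13 to 0.73, and from 0.05 to 0.55 with the block (limma, adjusted p = 0.130 with the block). The 250 bases before its RefSeq start (GRCm38.p6, chr17:87635729-87635978, plus strand) are shown because the repressors Snai1, Zeb1 and Zeb2, whose genes were examined with those of Cdh1 regulation, bind the E-box letters CAGGTG or CACCTG, which are in capitals. This window holds 2 such matches, that of Cldn6 holds 1, and those of Adam10, Adam17, Adam23 and Ctnnd1 hold 0. On either strand, 17.2% of the RefSeq windows hold the letters.
Epcam: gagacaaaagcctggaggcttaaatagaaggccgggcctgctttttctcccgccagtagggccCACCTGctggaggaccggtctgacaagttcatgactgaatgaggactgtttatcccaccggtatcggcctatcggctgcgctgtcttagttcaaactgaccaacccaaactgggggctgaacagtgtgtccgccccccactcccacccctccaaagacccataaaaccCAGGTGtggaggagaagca
A match in these letters is no measured binding. Promoter entries were matched for 6 of the 10 genes.

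Cldn6, a tight junction protein of pluripotent and early epithelial cells, was lower in HN on 17 February and higher on 2 March. It had 95.8, 68.1 and 76.8 in R1 and 54.8, 58.1 and 104 in HN. The ratios of HN to R1 in the pairs were 0.571, 0.854 and 1.35. For Cldn6 the log2 fold change was -0.20 with a 95% interval from -0.82 to 0.43, and the lines overlapped.

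The order of the members by level per kb of their longest coding transcript differed between the lines in the places of Adam23 and Adam10. In R1 Ctnna1 led with 252 ± 51.4 normalized counts per kb (SD, n = 3), followed by Ctnnd1 (161), Cdh1 (113), Epcam (86.4), Adam23 (82.1), Cldn6 (49.5), Adam17 (31.8), Cdh3 (7.68), Adam10 (7.32) and Cdh2 (3.77). The ranges of R1 libraries overlapped for Ctnnd1 and Cdh1, although Ctnnd1 was the higher in 3 of 3 libraries. They also overlapped for Cdh1 and Epcam and for Epcam and Adam23, where the order of the means held in 2 of 3 libraries, and for Cdh3 and Adam10, where it held in 1. In HN Adam23 stood at 22.1 ± 11.5 per kb, below Adam17 at 34.5 with overlapping ranges but in 3 of 3 libraries. Adam10 at 10.9 stood above Cdh3 at 9.30, with overlap, in 2 of 3 libraries. The HN ranges of Cdh1 and Epcam overlapped with Cdh1 the higher in 3 of 3 libraries, and those of Cldn6 and Adam17 and of Cdh3 and Cdh2 overlapped with the order held in 2 of 3. Cdh2 had the lowest mean in both lines. Its level per kb was 1.52%, 2.49% and 7.68% of that of Cdh1 in the R1 libraries and 7.11%, 3.89% and 8.05% in the HN libraries. The highest value of each line came from the library of 2 March, which also had reads on the most genes.

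**Figure D4:**
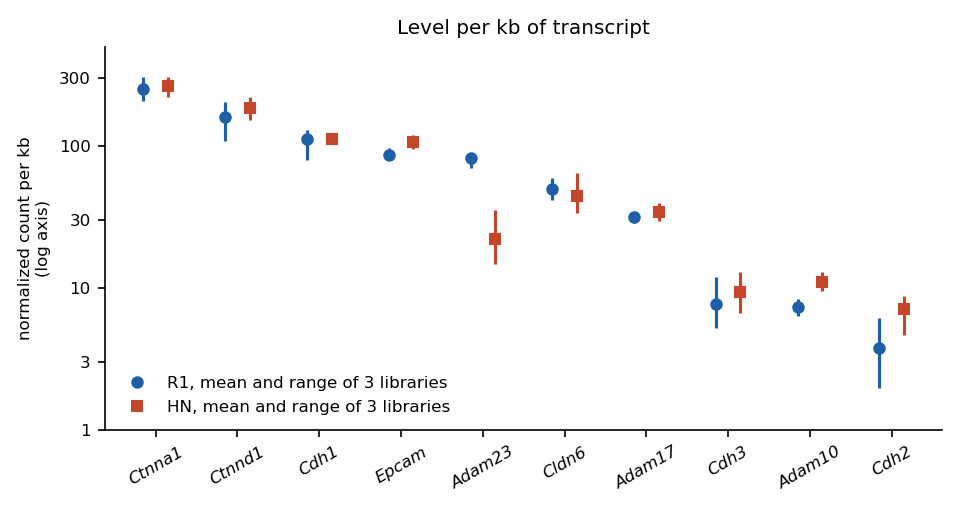
Normalized count per kb of the longest coding transcript (y axis, log scale) for the 10 genes in order of their R1 level, as the mean and the range of 3 libraries of R1 (blue circles) and HN (red squares). Adam23 stands at 82.1 in R1 and 22.1 in HN, while the ranges of the other genes overlap except for Adam10.

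The members also varied with the collection date. The span between the highest and the lowest date mean, on the log2 scale over both lines, was widest for Cdh2 (0.88), Adam23 (0.78) and Ctnnd1 (0.73) and narrowest for Epcam (0.20). Ctnna1, Ctnnd1, Cdh1, Adam23 and Epcam were lowest on 2 March, whereas Cdh2 and Cldn6 were highest on that date. The libraries of 2 March also had reads on the most genes of each line, and the part of this in the Cdh2 level was not tested. The coefficient of variation within R1 ran from 8.60% for Adam17 to 56.5% for Cdh2, and for Adam23 it was 12.8% in R1 and 52.2% in HN.

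The wider junction and shedding machinery was described with 8 gene lists, in which 103 genes were tested, members included. Without the block Adam23 was the 1 gene that passed. With the block 10 rose and 6 fell. Among the 93 genes that are no members, 9 rose and 5 fell with the block, which is 9.68% and 5.38%, against 5.46% and 4.02% of all tested genes. Their median log2 fold change was 0.07, beside -0.01 over all tested genes. The number that passed with the block among the 103 was 13 without the libraries of 17 February, 4 without those of 20 February and 18 without those of 2 March. The 4 were Adam23, Ctnnal1, Tspan14 and Jam2, so the other genes below that passed with the block did not pass without 20 February. Arvcf, Psen2, Jam3 and Klf5 also did not pass without 17 February.

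Of 11 tested cadherin genes Cdh2 alone passed with the block, and the median log2 fold change of the list was 0.03. Of 15 catenin and nectin genes, Vcl, the actin-binding vinculin of junctions, rose with the block (log2 fold change 0.55). A further 3 genes of that list fell, Ctnnal1 (-0.65), which encodes an alpha-catenin relative, Arvcf (-0.50), a relative of p120-catenin, and the nectin gene Pvrl2 (-0.58), which, in fits without the block that left out 1 library, ranged from -0.97 (R1 of 2 March) to -0.38 (R1 of 20 February). Vcl lies on chromosome 14, whose 481 tested genes had a median log2 fold change of 0.25, and it did not pass after chromosome centring with the block (0.25, limma adjusted p = 0.166). Of 7 desmosome genes Dsg2, the desmosomal cadherin desmoglein 2, fell (-0.70), with 160, 141 and 129 normalized counts in R1 and 105, 70.2 and 92.1 in HN. Pkp2 and Perp, the other desmosome genes with a mean of at least 50, did not pass, with log2 fold changes of -0.11 and 0.40. None of these genes passed without the block by limma, where the lowest adjusted p was 0.544, that of Dsg2.

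Of 15 tested ADAM genes Adam23 alone passed, and the median of the list was 0.10. Adam15, the remaining ADAM gene named by level and change, had a log2 fold change of 0.37 and did not pass. Of 21 partners of shedding, which include the tetraspanins that traffic ADAM10, the inhibitors of metalloproteases and the gamma-secretase subunits, Tspan14 rose with the block (0.58) and Psen2, a catalytic subunit of gamma-secretase, fell (-0.74). Neither passed after chromosome centring with the block (0.28 for Tspan14, which also lies on chromosome 14, and -0.68 for Psen2, limma adjusted p = 0.204 and 0.0504). Tspan14 had 149, 123 and 105 in R1 and 196, 179 and 185 in HN, with no overlap. Tspan5 and Rhbdf2, the other partners named by level and change, had log2 fold changes of 0.38 and 0.20 and did not pass. The median of these partners was -0.01.

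Of 18 tight junction genes 3 rose with the block and 0 fell, against 5.46% and 4.02% of all tested genes. These were Ocln, which encodes occludin (log2 fold change 0.99, SE 0.38, limma adjusted p = 0.0084 with the block), and the junctional adhesion molecule genes Jam2 (0.43) and Jam3 (0.73). Ocln had 35.1, 12.6 and 22.9 in R1 and 48.7, 36.2 and 48.7 in HN, with no overlap. Leaving out 1 library, in fits without the block here and for the genes that follow, lowered Ocln to 0.62 at the least (R1 of 20 February) and Jam2 to 0.19 (R1 of 2 March) and 0.29 (HN of 17 February). Cldn4 did not pass (0.43, limma adjusted p = 0.0546 with the block). Of 5 genes of EpCAM and its protease system, St14, the protease matriptase that cleaves EpCAM, and its inhibitor gene Spint1 both rose with the block (0.52 and 0.38). Leaving out 1 library moved St14 down to 0.33 (HN of 17 February) and 0.35 (R1 of 20 February), and Spint1 to between 0.06 (R1 of 2 March) and 0.74 (HN of 2 March), with 0.64 without R1 of 17 February and 0.15 and 0.23 without HN of 17 and of 20 February. All 5 genes of this list had log2 fold changes above 0 in the full comparison, with a median of 0.38, beside 48.5% of all tested genes above 0. Without the block 0 of the 5 had an unadjusted p under 0.05 in limma.

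Of 11 regulators of Cdh1 transcription, the zinc finger factor genes Klf4 and Klf5 rose with the block (0.53 and 0.47; for Klf5 0.30 without the HN library of 20 February), while the repressor genes Snai1, Zeb1 and Zeb2 had values of -0.32, -0.07 and -0.11 and did not pass. Grhl3 had a log2 fold change of -0.48 and did not pass. Klf5 lies on chromosome 14 like Vcl and Tspan14, and it did not pass after chromosome centring with the block (0.17, limma adjusted p = 0.506). In that fit 12 of the 103 genes passed.

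**Figure D5:**
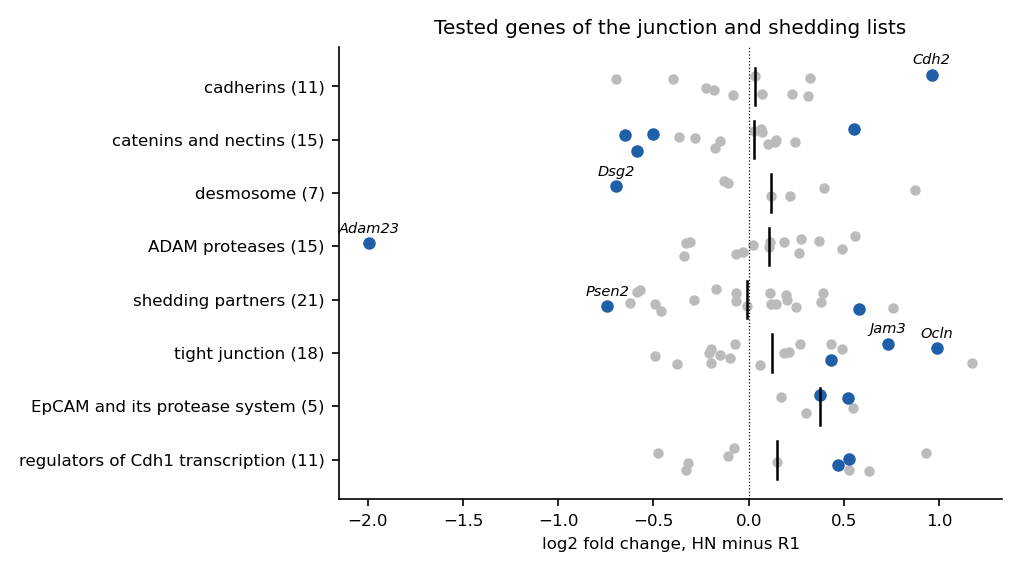
Log2 fold change (x axis, HN minus R1) of the tested genes of 8 junction and shedding lists, with the number of genes tested in parentheses. Blue points passed with the collection date in the model, grey points did not, vertical jitter carries no value, and black bars are list medians, which lie between -0.01 and 0.38. Adam23 lies at -1.99, farther from 0 than any other gene plotted.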

How the data were processed

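RNA-seq libraries of R1 and HN mESCs (3 per line) were prepared with the TruSeq RNA v2 kit, which does not keep strand. The authors deposited 1 table with a normalized signal per gene, the reads on exons divided by a size factor. According to the submitters' processing notes and the methods, reads were aligned to mm10 (GRCm38) with STAR, duplicates removed with Picard, reads counted with HTSeq and scaled with DESeq2; versions and gene annotation are not given in the sources used here. Values were whole multiples of 1 read in 100% of cases (tolerance 0.01 read), so reads were recovered for depth and for count tests. Without the block, edgeR 4.0.16 called 16 genes higher and 18 lower in HN, and DESeq2 called 47 and 33. Counting error is largest for genes with few reads, such as Cdh2.

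Values were compared as log2(normalized count + 1) with limma 3.58.1 (R 4.3.3, empirical Bayes with trend) over 14276 genes with a mean of at least 5, with Benjamini-Hochberg adjustment. All 10 members passed this filter. Genes passed at an adjusted p under 0.05, and were called where the absolute log2 fold change was also above 1. The model held the line only, since the study's methods name no block and no other term. The pairing comes from the collection dates in the labels. Deviations from the line means correlated between libraries of the same date (0.57, 0.76 and 0.65 over 7659 genes). Between libraries of different dates the values were -0.54 to -0.15. The deviations cancel out within a line, so positive same-date values make the others negative on average, and the latter are no further result.

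The members and lists were chosen with earlier results of these data known. Named were all members, Htt, genes of each list that were called or were among the 3 with the largest change at a mean of at least 50, genes within 1 Mb of Cdh3 and Cdh1, and the 5 genes most like Adam23. List genes that passed with the block only, Adam22 beside Adam23, the repressors Snai1, Zeb1 and Zeb2, and the markers with values of their own were named after their values were seen. Alternatives were the replicate block, edgeR and DESeq2 1.42.0 with and without it, other pseudocounts, filters and scalings, limma without trend, chromosome centring and leaving out libraries. Chromosome centring with the block and leaving out both libraries of a date were added after seeing the data. Lines whose gene name had turned into a date (27) were not named. Unused columns of per-sample values numbered 0. Positions and lengths come from GENCODE M21 (GRCm38), and promoter sequence from RefSeq (GRCm38.p6).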

Additional observations from a re-analysis of the deposited data

How the results depend on the processing

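Adam23 kept its direction in all 23 alternatives (log2 fold change from -2.39 to -1.76) and stayed past the threshold in 20. It was lost in limma without trend (-1.99, 0 members past the threshold, 0 called) and without the first R1 or the first HN library (0 members past the threshold and 0 called in each; over the 6 such fits -2.39 to -1.77). The replicate block, meaning collection date, added Cdh2 (0.96), so that 2 members passed, as in edgeR with the block (0.91 for Cdh2, 2 members) and in chromosome centring with the block (0.99, 2 members). The replicate block moved no other member across the threshold. Leaving out 1 library moved Cdh2 between 0.60 and 1.37. In the blocked fits without both libraries of 1 date, which leave 1 residual degree of freedom and rest on the pooled spread, the members past the threshold numbered 1 to 3 and those called 1 to 2. Cdh2 ran from 0.51 to 1.195 (past the threshold without 2 March), Cdh3 from -0.16 to 0.88 and Ctnnd1 from 0.11 to 0.31 (both past it without 17 February, Ctnnd1 at 0.30), Cdh1 from -0.17 upward, and Cldn6 was 0.10 without 17 February.

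Values near 0 changed sign without passing. Cdh1 was -0.0023 in DESeq2 and ranged from -0.20 to 0.15 when 1 library was left out (-0.014 without the second HN library). Ctnna1 ranged from -0.056 to 0.23 (-0.047 without the second HN library) and Ctnnd1 from -0.022 to 0.44. The members without overlap numbered 2 in the comparison reported, 1 among genes with a mean of at least 50, 4 after quantile normalization and after chromosome centring with or without the block, 2 to 4 without 1 library, and 3 to 6 without 1 date (5 without 17 February). The junction and shedding genes past the threshold numbered 16 with the block, 18 in edgeR and 7 in DESeq2 with the block, 12 in chromosome centring with the block, 0 in limma without trend, 0 to 1 without 1 library, and 4 to 18 in the blocked fits without 1 date (13 without 17 February). Over all genes, those past the threshold in limma were 35 without and 1354 with the block. With the block, DESeq2 passed 334 higher and 178 lower, and edgeR 920 and 685. Depth limits Cdh2, Cdh3 and Adam10 most, with under 70 reads each in every library.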

Other observations

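Some genes of the junction and shedding lists, named after their values were seen, separated the lines without passing with or without the block. Among the 93 list genes that are no members, 9 lay above and 6 below in HN without overlap, whether or not they passed. Over all tested genes these shares were 5.23% and 5.54%. The 9 and 6 include genes that passed with the block, such as Ocln, Tspan14 and Dsg2. Furin, the convertase that matures ADAM proteases, had only 7 to 28 reads per library. Its mean was 11.5 in R1 and 20.1 in HN, with no overlap between libraries (log2 fold change 0.76, limma adjusted p = 0.178 with the block). Tspan15, a tetraspanin that directs ADAM10 to cadherins, had means of 38.1 in R1 and 24.97 in HN, also without overlap (-0.59, adjusted p = 0.138 with the block). Cldn19, a claudin gene near the filter on low values, had means of 5.19 and 13.7 without overlap (1.17, adjusted p = 0.112 with the block).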
